A study of Mus musculus with 3 samples.

Results

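The insulin-like growth factor (IGF) family was examined as 10 genes, taken by symbol from all features of a single-cell RNA-seq data set of the mouse nucleus accumbens: the ligands Igf1 and Igf2, the receptors Igf1r and Igf2r, and the binding proteins Igfbp2, Igfbp3, Igfbp4, Igfbp5, Igfbp6 and Igfbp7. All 10 were found. The tissue came from Thy1::ChR2 mice, a strain in which a Thy1 promoter drives the light-gated channel channelrhodopsin-2 in projection neurons, and every sample received FLiCRE labelling, a light- and calcium-gated transcriptional reporter, during optical stimulation of ChR2 in the nucleus accumbens. The 3 samples form 1 group, so the contrasts below are between cell classes within the libraries, or between neurons with and without mCherry transcripts, and no unstimulated or unlabelled tissue was compared. Nothing states that the 3 libraries are separate animals, so p-values measure only the spread between these libraries. The fits share their estimate of that spread over genes.

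IGF1 and IGF2 are secreted peptides that signal mainly through the receptor tyrosine kinase IGF1R. IGF2R, which is also the cation-independent mannose 6-phosphate receptor, takes up IGF2 and carries it to lysosomes. The binding proteins hold the ligands outside cells and extend or restrict their access to the receptor, and IGFBP7 is a distant relative with low affinity for IGFs. In adult brain the vessels, meninges and some interneurons and glia are known sites of these transcripts.

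The 3 libraries held 2306, 5783 and 1834 cells after filtering, with 2788685, 14563414 and 6267259 unique molecular identifiers (UMIs, 1 per captured transcript) and a median of 985.5, 2084 and 2674 UMIs per cell. Cells were assigned to classes by markers that include no IGF family gene, and 1359 cells met no gate. The class's own marker list was the highest list in all 3 libraries for 14 of the 15 classes described here, and in 1 library for Tshz1-Pcdh8 neurons. Of the cell barcodes, libraries 1 and 2 shared 13, libraries 1 and 3 shared 7 and libraries 2 and 3 shared 22. Levels are given as CPM (the UMIs of a gene in a class, scaled so that every class sum has the same total) in libraries 1, 2 and 3 in that order, and as they are 3′ counts they are compared between classes and not between genes.

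Igfbp2 and Igfbp5 are neighbours in the genome, and both were high in astrocytes and fibroblasts. On mm10 (GRCm38, GENCODE vM21), Igfbp2 lies on chromosome 1 at 72824503 to 72852474 on the plus strand, and Igfbp5 at 72857932 to 72874884 on the minus strand, with 5457 bases and no annotated gene between them. Igf1r (chromosome 7, 67952827 to 68233668, plus strand) and Igfbp7 (chromosome 5, 77349240 to 77408041, minus strand) were both high in endothelial cells. The 250 bases upstream of a RefSeq start of each of these 4 genes (GRCm38.p6; for Igfbp2 the first of 2 starts) are shown on the gene's strand, 5′ to 3′, because each pair was high in the same cells. Capitals mark the GC box letters GGGCGG on either strand.
Igfbp2 (chr1:72824230-72824479, plus strand): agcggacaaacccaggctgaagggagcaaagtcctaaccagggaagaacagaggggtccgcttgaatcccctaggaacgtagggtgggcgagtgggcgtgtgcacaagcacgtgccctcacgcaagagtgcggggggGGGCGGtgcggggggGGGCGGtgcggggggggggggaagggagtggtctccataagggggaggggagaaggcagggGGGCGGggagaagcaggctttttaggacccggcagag
Igfbp5 (chr1:72874866-72875115, minus strand): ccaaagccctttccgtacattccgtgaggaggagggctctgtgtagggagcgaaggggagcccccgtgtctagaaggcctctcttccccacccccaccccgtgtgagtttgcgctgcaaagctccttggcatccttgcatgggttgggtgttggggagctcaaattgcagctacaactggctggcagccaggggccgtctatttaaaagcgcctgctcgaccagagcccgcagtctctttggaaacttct
Igf1r (chr7:67952007-67952256, plus strand): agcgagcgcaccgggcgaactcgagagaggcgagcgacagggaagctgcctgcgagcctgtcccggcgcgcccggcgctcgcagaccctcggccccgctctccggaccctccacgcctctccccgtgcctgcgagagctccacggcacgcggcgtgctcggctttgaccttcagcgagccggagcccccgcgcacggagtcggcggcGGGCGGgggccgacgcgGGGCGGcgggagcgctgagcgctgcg
Igfbp7 (chr5:77408046-77408295, minus strand): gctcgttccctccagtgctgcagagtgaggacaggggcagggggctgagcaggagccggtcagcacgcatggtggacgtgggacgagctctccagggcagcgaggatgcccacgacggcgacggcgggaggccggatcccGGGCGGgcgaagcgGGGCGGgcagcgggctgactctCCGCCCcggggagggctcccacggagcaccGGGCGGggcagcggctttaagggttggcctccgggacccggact
The GC box was found 3 times upstream of Igfbp2, 2 times upstream of Igf1r and 4 times upstream of Igfbp7, and these letters are not in the Igfbp5 window. It occurs in 32.7% of the 32851 RefSeq windows of the same length. The TATA box letters TATAAA (12.4% of windows) and the ETS core letters CCGGAA (12%), searched on both strands, are not in any of the 4 windows.

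The class fit tested each gene in each of 12 classes against the mean of the other classes with edgeR's quasi-likelihood test, and "called" means a Benjamini-Hochberg adjusted p below 0.05. Igf2r did not pass the low-count filter there. Among the 108 pairs of the other 9 members with a class, 21 were called higher and 11 lower, that is 19.4% and 10.2%, against 21.6% of all gene and class pairs called higher and 8.18% called lower. The members' shares are near those of all genes. Because several classes held no UMI of a member, fold changes are given against all other gated cells of the library summed, a comparison added after the data were seen.

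**Figure D1:**
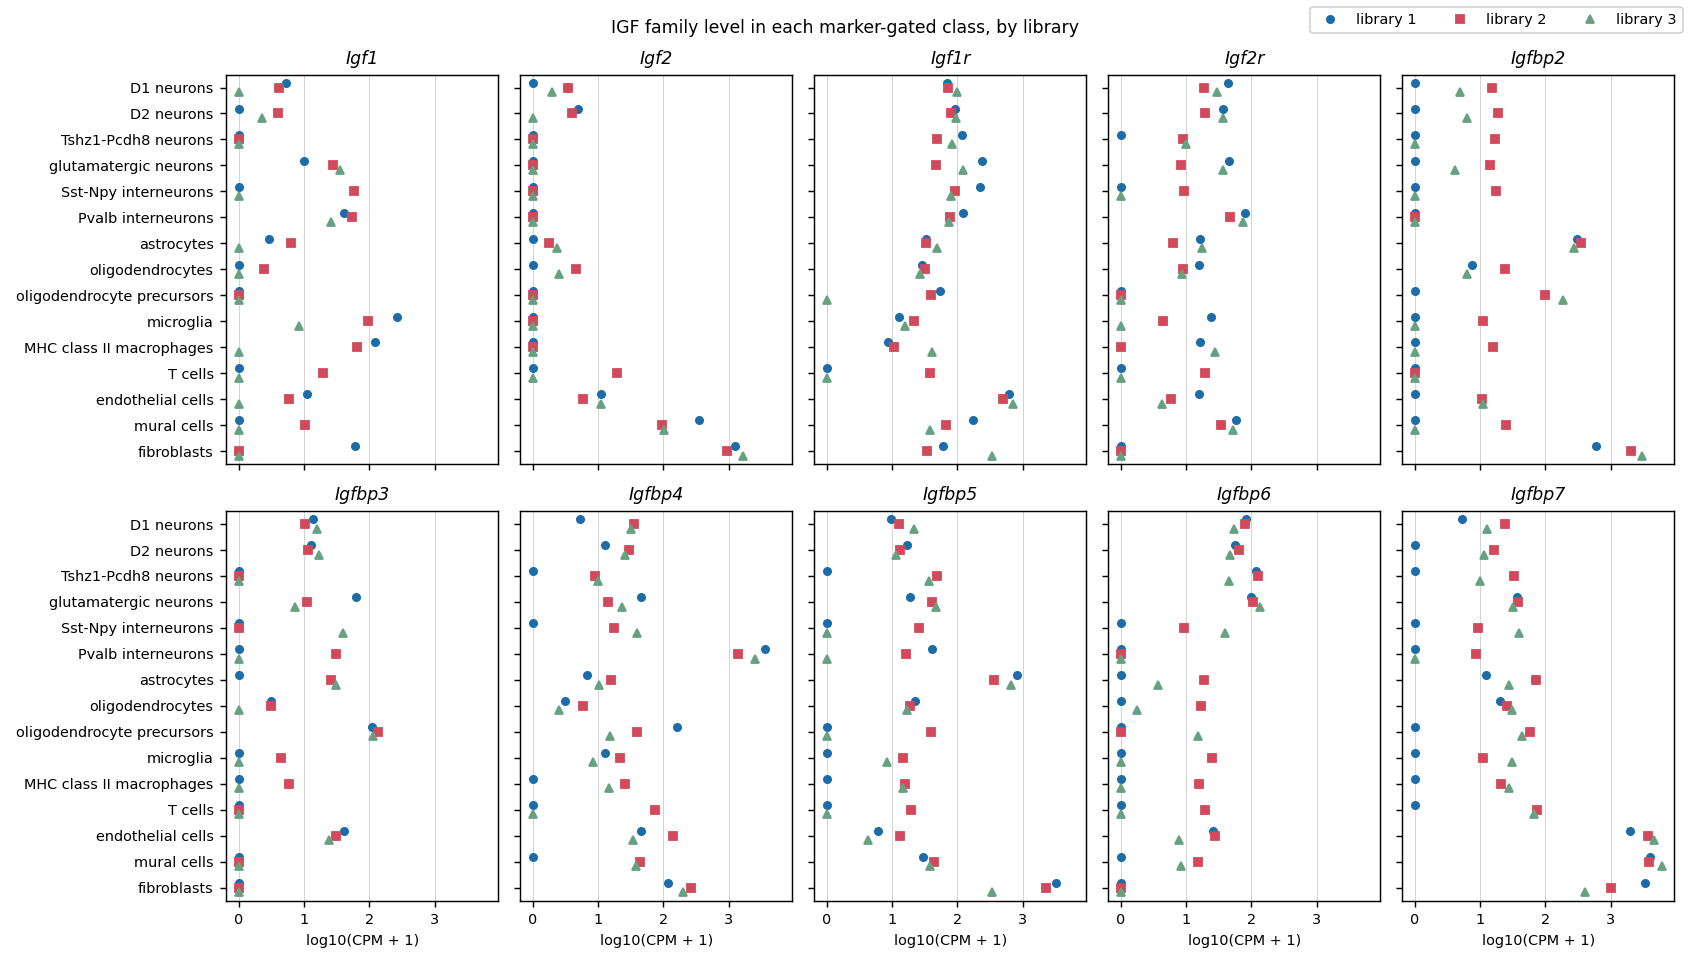
Level of the 10 IGF family genes in 15 marker-gated classes, as log10(CPM + 1) on the x axis. Each point is 1 library (circle, library 1; square, library 2; triangle, library 3), and the row of Igfbp4 in Pvalb interneurons and the rows of Igfbp7 in endothelial, mural and fibroblast cells lie far to the right of the neuronal and glial rows.

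Of the ligands, Igf2, a growth factor best known from development and from adult meninges and vessels, was concentrated in fibroblasts and mural cells. In fibroblasts it stood at 1237, 932 and 1670 CPM, and in mural cells (pericytes and smooth muscle) at 350, 95.0 and 103 CPM. Every fibroblast value was above every mural value, and every mural value above every endothelial value, which were 10.0, 4.95 and 10.1 CPM. Fibroblasts, with 48 cells, held 45.7% of the 223 Igf2 UMIs although they held 0.390% of all UMIs, and mural cells held 20.6%. Against all other gated cells the log2 difference was 7.61 ± 0.46 (SE) in fibroblasts (adjusted p = 1.24e-58) and 4.34 ± 0.38 in mural cells (adjusted p = 1.04e-07), by edgeR, higher in all 3 libraries.

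The mural Igf2 signal was accompanied by fibroblast markers. The fibroblast list summed to 1226, 860 and 332 CPM in mural cells, against 25.0, 19.8 and 16.8 CPM in endothelial cells. In the 174 mural cells with no UMI of that list, Igf2 stood at 214, 34.2 and 78.7 CPM, a mean of 109 against 183 in all 280 mural cells. Within mural cells, the 174 cells with UMIs of the pericyte markers Kcnj8, Abcc9 or Higd1b and none of Acta2 or Myh11 held 35 Igf2 UMIs, at 547, 116 and 154 CPM. The 22 cells with the smooth muscle markers Acta2 or Myh11 alone held 0, where 3 counts are 1207, 109 and 360 CPM, so a level like that of the other cells was not detectable in libraries 1 and 3. The antisense gene Igf2os, which overlaps Igf2, held 1 UMI in all cells.

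Igf1, the ligand through which growth hormone acts in many tissues, was sparse, with 355 UMIs in 204 of 9923 cells. It stood at 267, 95.2 and 7.47 CPM in gated microglia and at 122, 64.0 and 0 CPM in macrophages gated on MHC class II genes. These ranges overlapped, and in both classes library 1 was the highest and library 3 the lowest. Both classes were called higher, by 4.0 ± 0.59 (adjusted p = 0.000537) in microglia and 3.05 ± 0.58 (adjusted p = 0.00286) in MHC class II macrophages, by edgeR against all other gated cells. In the microglia, 20 of 368 cells held all 52 Igf1 UMIs and 5 cells held 32 of them.

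The Igf1 of gated microglia lay in cells that also held macrophage transcripts. The 139 microglia with none of the MHC class II macrophage markers held 1 Igf1 UMI, the 128 with 1 such marker held 13, and the 101 with 2 or more held 38. The reverse was less certain. The 98 MHC class II macrophages with no UMI of the microglia or perivascular macrophage lists held 3 Igf1 UMIs, against 29 in all 259. Their Igf1 stood at 39.5, 18.2 and 0 CPM, against 122, 64.0 and 0 CPM in the whole class. In these 98 cells 3 counts are 59.3, 54.7 and 583 CPM, so every value was below that floor. In a Leiden clustering made without the IGF family genes, the 338 gated microglia in microglia clusters held 0 Igf1 UMIs, which allows up to 51.9, 13.1 and 24.1 CPM (3 counts per library). The 29 gated microglia placed in MHC class II macrophage clusters held all 52, at 811, 433 and 127 CPM. Over all cells of the clusters, Igf1 stood at 205, 201 and 54.2 CPM in the 574 cells of MHC class II macrophage clusters and at 40.0, 17.6 and 0 CPM in the 420 cells of microglia clusters.

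**Figure D2:**
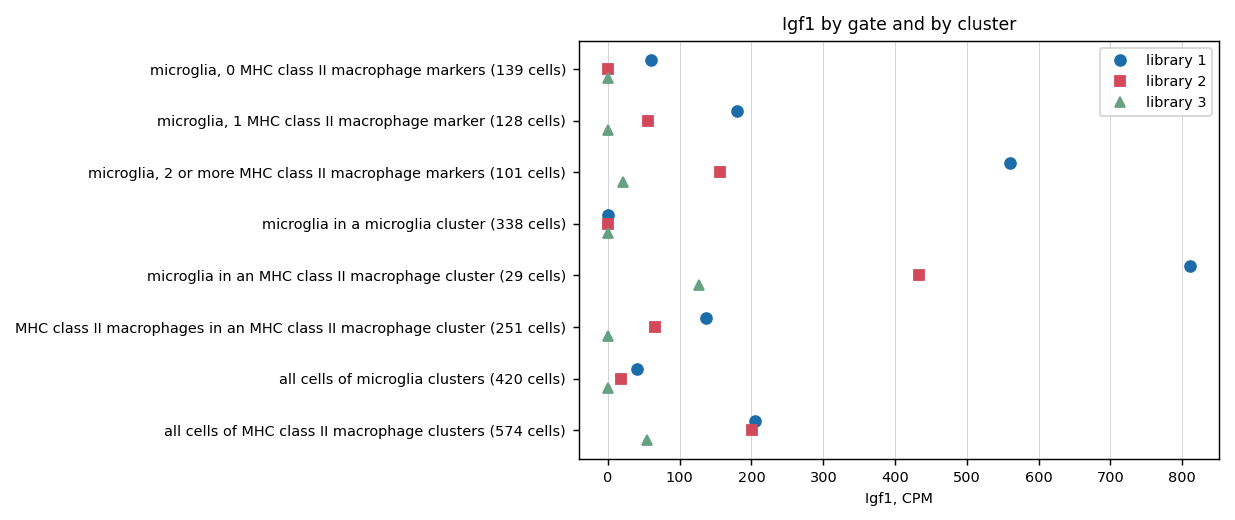
Igf1 level (CPM, x axis) in microglia and MHC class II macrophages by marker count and by Leiden cluster, 1 point per library. Gated microglia in microglia clusters are at 0 in all 3 libraries, and gated microglia in macrophage clusters reach 811 CPM.

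The direct contrast of MHC class II macrophages with microglia therefore depended on how the cells were divided. By the marker gate no member was called, and none had an unadjusted p below 0.05, against 5.54% of all genes called; DESeq2 also called none. Igf1 had a log2 difference of -0.62 ± 0.53 (edgeR adjusted p = 0.666). By Leiden clusters Igf1 was called higher in the macrophages, by 3.55 (edgeR adjusted p = 3.5e-06). The clusters share the cells' expression with the level being compared, although Igf1 itself was left out of the clustering.

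Neuronal Igf1 was low per class. Gated neurons held 33.5% of the Igf1 UMIs, below their 56.1% of all UMIs, and gated non-neuronal cells held 29.6%. Ungated cells held the largest share, 36.9%, and 112 of their 131 Igf1 UMIs lay in MHC class II macrophage clusters. The contrast of neurons with non-neuronal cells did not call Igf1 (-0.74 ± 0.79, edgeR adjusted p = 0.431). In glutamatergic neurons it stood at 8.94, 26.4 and 34.5 CPM and in Pvalb interneurons at 40.2, 53.0 and 24.8 CPM (9 UMIs). Oligodendrocytes, which served as a background class, had 0, 1.43 and 0 CPM. Against all other gated cells neither neuronal class was called (edgeR adjusted p = 0.0977 and 0.103), while both were called against the mean of the other classes (adjusted p = 1.11e-05 and 0.0235). In library 3 the glutamatergic level was above that of gated microglia (7.47 CPM) and MHC class II macrophages (0 CPM). Sst-Npy interneurons had 0, 57.5 and 0 CPM (7 UMIs), and D1 neurons had 4.27, 3.18 and 0 CPM.

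Of the receptors, Igf1r, the kinase that both ligands activate, was highest in endothelial cells at 625, 500 and 720 CPM. The next class by mean was fibroblasts, at 58.9, 33.3 and 334 CPM, and no fibroblast value reached the endothelial range. Glutamatergic neurons (241, 46.9 and 121 CPM), D1 neurons (68.3, 70.7 and 97.1 CPM) and D2 neurons (91.7, 78.4 and 94.3 CPM) overlapped one another. Against all other gated cells the endothelial log2 difference was 3.58 ± 0.19 (edgeR adjusted p = 2.7e-07), higher in 3 of 3 libraries. In the 408 endothelial cells with no UMI of the mural or fibroblast lists the level was 625, 504 and 765 CPM.

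Igf1r was spread widely, and neurons held most of its transcripts. Gated neurons held 54.4% of the 1950 UMIs, close to their 56.1% of all UMIs, and endothelial cells held 27.7% with 3.82% of all UMIs. A UMI was present in 43.0%, 51.0% and 66.3% of endothelial cells, and in 3.05%, 6.99% and 9.42% of oligodendrocytes, whose median depth was 1886.5 UMIs against 1302 in endothelial cells. Thinned to 1000 UMIs per cell, which left out 176 endothelial cells, the endothelial shares were 37.1%, 33.1% and 44.0%. Microglia were the lowest of the 4 glial classes by mean, at 11.6, 20.4 and 14.9 CPM.

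Igf2r, the scavenging receptor for IGF2, was low in every class, with 423 UMIs in 400 cells. It was highest by mean in Pvalb interneurons, at 80.3, 45.4 and 74.5 CPM from 11 UMIs, followed by mural cells at 58.4, 33.3 and 51.6 CPM, and these ranges overlapped. D1 neurons stood at 42.7, 17.6 and 29.1 CPM and oligodendrocytes at 15, 7.86 and 7.59 CPM. The antisense gene Airn overlaps Igf2r and held 29 UMIs, and how the counting treated strand is not given in the sources used here.

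**Figure D3:**
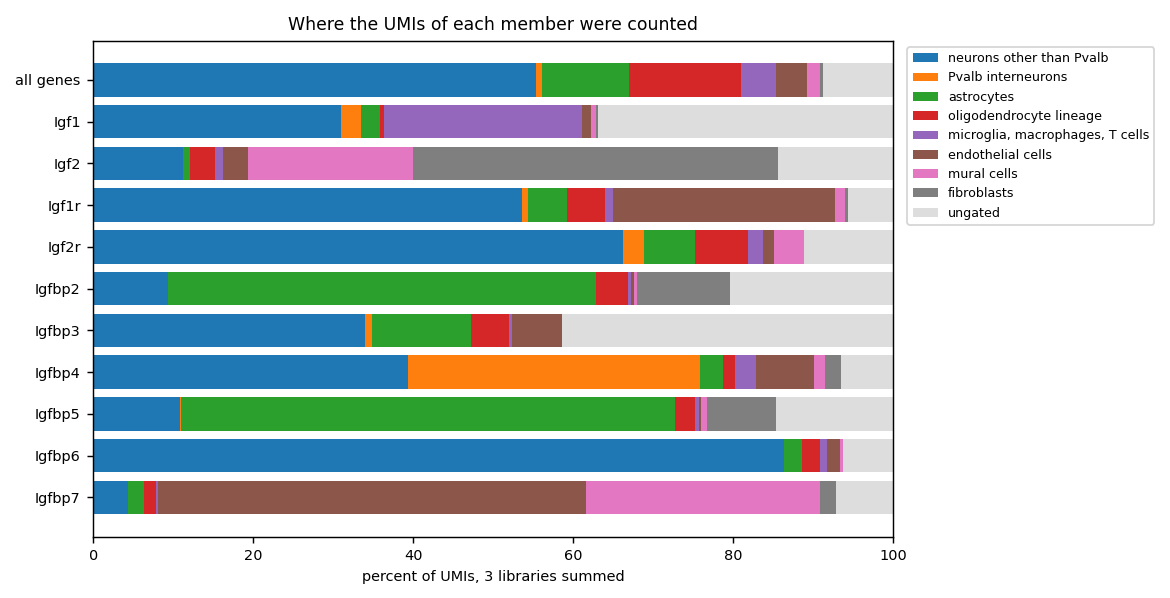
Percent of each gene's UMIs (x axis, 3 libraries summed) by class, with the same split for all genes in the top bar. Igfbp7 is mostly endothelial and mural, Igfbp6 neuronal, Igfbp2 and Igfbp5 mostly astrocytic, and Pvalb interneurons hold 36.6% of Igfbp4.

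Igfbp4, a binding protein that is cleaved by the protease PAPP-A, marked the Pvalb interneurons. Its level there was 3654, 1408 and 2509 CPM, against 4.27, 34.0 and 31.1 CPM in D1 neurons, 12, 28.4 and 24.9 CPM in D2 neurons and 0, 16.4 and 39.0 CPM in Sst-Npy interneurons. No other class came within the Pvalb range, and the next by mean was fibroblasts at 118, 266 and 200 CPM. The log2 difference from all other gated cells was 6.18 ± 0.42 (edgeR adjusted p = 4.15e-08), higher in 3 of 3 libraries. Pvalb interneurons are fast-spiking inhibitory cells. They were also tested in a separate fit of 15 classes, added after the data were seen to take in classes of at least 5 cells per library. In that fit Igfbp4 was higher than the mean of the other classes by 6.20 ± 0.22 (edgeR adjusted p = 1.58e-54). Over the 3 added classes of the 15-class fit 7 of 27 member pairs were called higher, against 11.5% of all pairs.

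The Igfbp4 signal was carried by nearly all Pvalb cells. Of 50 cells, 48 held a UMI, with a median of 6 UMIs, a highest of 31 and 27.5% of the UMIs in 5 cells. Oligodendrocytes, at a median of 1886.5 UMIs against 3620.5, held one in 0.235%, 1.05% and 0.649% of cells. After thinning to 1000 UMIs, 83.3%, 61.3% and 100% of Pvalb cells still held one. In the 36 cells free of fibroblast and endothelial markers the level was 3273, 1531 and 2509 CPM. The fit over all alternatives kept the log2 difference between 5.29 and 7.23.

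Igfbp7, a secreted protein of vessel walls, was the vascular member. It reached 1976, 3806 and 4546 CPM in endothelial cells, 4000, 3910 and 6141 CPM in mural cells and 3358, 1031 and 401 CPM in fibroblasts. The endothelial range overlapped that of mural cells and that of fibroblasts, every mural value was above every fibroblast value, and the other 12 classes of the 15 were at or below 74.9 CPM. A UMI was present in 412 of 463 endothelial cells and 258 of 280 mural cells. Both were called against all other gated cells, by 5.12 ± 0.21 (adjusted p = 6.64e-08) in endothelial and 4.57 ± 0.42 (adjusted p = 2.52e-07) in mural cells, by edgeR. Levels were little moved in cells free of the neighbouring lists, at 2028, 3722 and 5102 CPM in endothelial and 4480, 3445 and 5976 CPM in mural cells. Igfbp7 overlaps Polr2b on the opposite strand.

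Mural and endothelial cells differed in other members. Igf2 was higher in mural cells by 3.98 ± 0.61 (edgeR adjusted p = 1.12e-07). Igfbp5 was higher by 2.23 ± 0.71 (edgeR adjusted p = 0.0164), from 29.2, 42.8 and 36.9 CPM against 5.0, 12.4 and 3.37 CPM. These Igfbp5 values rest on 15 mural and 7 endothelial UMIs. The mural value of library 1 is 1 UMI, where 3 counts are 87.6 CPM. Igfbp5 in mural cells free of fibroblast markers was not tested. Igf1r was lower by 3.21 on the log2 scale (SE 0.38, edgeR adjusted p = 1.85e-11), from 175, 66.5 and 36.9 CPM in mural cells. Igfbp3 stood at 40.0, 29.7 and 23.6 CPM in endothelial cells and had 0 UMIs in mural cells (edgeR adjusted p = 0.00501). These 4 calls of 9 members compare with 16.3% of all genes. Without library 2, Igfbp3 (adjusted p = 0.222) and Igfbp5 (adjusted p = 0.0882) were no longer called, and without library 3 Igfbp5 was not (adjusted p = 0.203).

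Fibroblasts carried several binding proteins beside Igf2. Igfbp2 stood at 589, 2063 and 3006 CPM, Igfbp5 at 3299, 2246 and 334 CPM and Igfbp7 as above, and the order of the libraries was opposite for Igfbp2 and Igfbp5. The class had 14, 28 and 6 cells, and 5 of its cells held 85.2% of the Igfbp5 UMIs, the highest single cell 125 of 196. All 3 were called against other gated cells, by 4.66 ± 0.47, 3.67 ± 0.49 and 1.91 ± 0.44, with edgeR adjusted p of 5.36e-21, 6.52e-12 and 0.000372. As the spread is shared over genes, so small a p-value does not mean that the libraries were alike. Igfbp4 was also called (1.85 ± 0.52, edgeR adjusted p = 0.00526), and without library 2 its call in the 15-class fit was lost (adjusted p = 0.112).

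Igfbp2 and Igfbp5 were the astrocytic members. Igfbp2 was steady over libraries, at 310, 357 and 271 CPM in astrocytes, and Igfbp5 ranged from 824 to 361 and 669 CPM. Their log2 differences from all other gated cells were 4.82 ± 0.31 (adjusted p = 3.01e-06) and 4.76 ± 0.29 (adjusted p = 2.36e-06), by edgeR, each higher in 3 of 3 libraries. Astrocytes held 53.6% of Igfbp2 and 61.8% of Igfbp5 UMIs. Restricting to the 863 astrocytes with no fibroblast marker left the levels at 312, 374 and 261 CPM for Igfbp2 and 846, 356 and 644 CPM for Igfbp5. An Igfbp5 UMI was found in 472 of 949 astrocytes and an Igfbp2 UMI in 278.

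Oligodendrocyte precursors shared Igfbp2 in part and differed in the others. They had Igfbp2 at 0, 96.8 and 184 CPM, Igfbp5 at 0, 38.7 and 0 CPM and Igfbp3 at 108, 136 and 113 CPM. In the direct contrast 3 of 9 members were called, against 17.8% of all genes: astrocytes were higher for Igfbp2 by 2.22 ± 0.48 (adjusted p = 0.000323) and Igfbp5 by 6.15 ± 0.62 (adjusted p = 2.32e-14), and lower for Igfbp3, which fell by 1.86 on the log2 scale (SE 0.61, edgeR adjusted p = 0.0213). The Igfbp3 call rests on 17 UMIs in precursors and was lost without each library in turn (adjusted p = 0.0727, 0.189 and 0.0633). With DESeq2 only Igfbp5 was called.

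Igfbp6, a binding protein that prefers IGF2, was neuronal. It stood at 98.3, 105 and 136 CPM in glutamatergic neurons, 117, 127 and 45.1 CPM in Tshz1-Pcdh8 neurons, 81.1, 78.6 and 53.4 CPM in D1 neurons and 55.8, 64.0 and 45.8 CPM in D2 neurons, and neighbours in this order overlapped. The library 1 value of Tshz1-Pcdh8 neurons was 1 UMI, where 3 counts are 350 CPM. Pvalb interneurons held 0 of the Igfbp6 UMIs and Sst-Npy interneurons held 2, at 0, 8.21 and 39.0 CPM. Gated neurons held 86.4% of the 1108 Igfbp6 UMIs. Non-neuronal cells had 3.34, 17.6 and 2.50 CPM, so library 2 carried a higher level outside neurons. Against all other gated cells glutamatergic neurons were higher by 1.68 ± 0.33 (adjusted p = 0.0091) and D1 neurons by 0.81 ± 0.22 (adjusted p = 0.0168), and D2 neurons were not called (0.36 ± 0.22, adjusted p = 0.239), by edgeR. Tshz1-Pcdh8 neurons were not called either (0.77 ± 0.43, edgeR adjusted p = 0.346). The summed other cells include the other neuron classes. Against the mean of the other classes, D2 neurons (1.45 ± 0.34, edgeR adjusted p = 0.0002) and Tshz1-Pcdh8 neurons (1.78 ± 0.51, edgeR adjusted p = 0.00589) were both called higher.

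Summed over classes, neurons and non-neuronal cells differed in 8 of the 10 members, against 65.9% of all genes. Igfbp6 (2.93 ± 0.46, adjusted p = 0.00108), Igfbp4 (1.59 ± 0.43, adjusted p = 0.0134) and Igf2r (0.88 ± 0.23, adjusted p = 0.0105) were higher in neurons. Pvalb interneurons held 378 of the 784 neuronal Igfbp4 UMIs. Igfbp4 stood at 12.7, 32.6 and 11.8 CPM in non-neuronal cells, and the D1 range (4.27, 34.0 and 31.1 CPM) overlapped it. Neurons of no named class were above non-neuronal cells in each library, at 57.3, 34.3 and 82.6 CPM. The Igfbp4 difference without Pvalb interneurons was not tested. Igfbp7 (-5.72 ± 0.32), Igfbp2 (-4.68 ± 0.44), Igf2 (-3.99 ± 0.38) and Igfbp5 (-3.82 ± 0.31) were lower, with edgeR adjusted p of at most 0.000106. Igf1r fell by 0.54 (SE 0.17, edgeR adjusted p = 0.0227) after TMM scaling, although its CPM was 94.2 in neurons and 98.8 in non-neuronal cells, and 7 of its alternatives ended the call. Neuronal Igfbp2 was 1.17, 14.1 and 3.57 CPM, again highest in library 2.

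**Figure D4:**
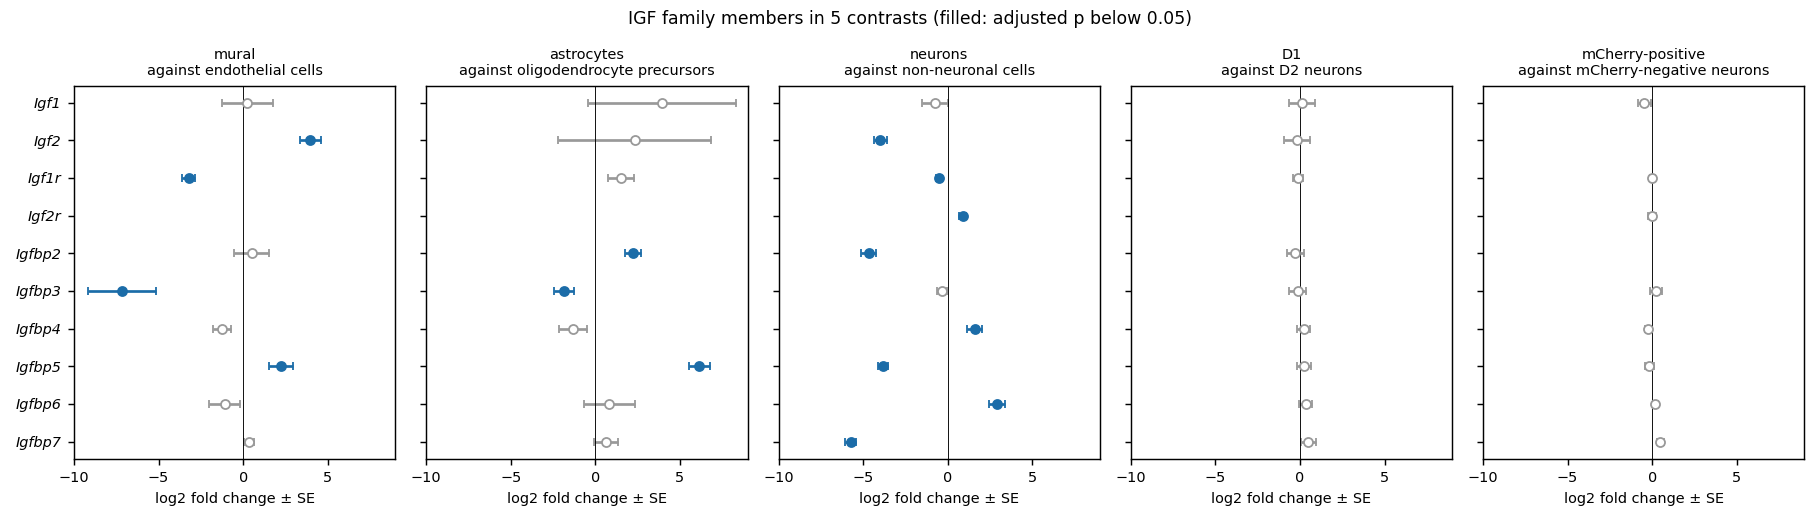
Log2 fold change with its standard error (x axis) for each member in 5 contrasts, filled where the adjusted p is below 0.05. The vascular, glial and neuronal contrasts have filled points, and the D1 against D2 and the mCherry contrasts have none.

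No member differed detectably between D1 and D2 neurons, the medium spiny neurons of the direct and indirect pathways. The contrast gave no call among 9 members, and none at an unadjusted p below 0.05, with edgeR and with DESeq2, against 0.49% of all genes called. Igfbp6 differed by 0.33 ± 0.37 (adjusted p = 1) and Igf1r by -0.12 ± 0.30 (adjusted p = 1). With these standard errors, modest differences were not detectable.

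Neurons with an mCherry UMI were compared with the other neurons. No member of 8 tested was called by edgeR or DESeq2, against 0.0782% of all genes. Igfbp7 was at 27.0, 26.9 and 25.0 CPM in 768 mCherry-positive neurons and at 5.13, 21.1 and 15.6 CPM in 3963 negative ones, a log2 difference of 0.49 ± 0.21. It was the only member with an unadjusted p below 0.05 (edgeR adjusted p = 0.829). Igfbp6 was at 122, 77.2 and 76.8 CPM against 61.6, 73.1 and 66 CPM (0.19 ± 0.13, edgeR adjusted p = 0.859). Library 1 gave only 43 positive neurons, where 3 counts are 40.6 CPM. They held 2 Igfbp7 and 9 Igfbp6 UMIs, and the negative neurons of library 1 held 4 Igfbp7 UMIs. The positive neurons were deeper, with a median of 3332 against 2140 UMIs. Against negative neurons matched on UMIs the Igfbp7 difference was 0.56, also not called (edgeR adjusted p = 1).

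Of 33 genes of the IGF and insulin signalling pathway, 21 passed the filter of the class fit. In endothelial cells 7 were called higher and 3 lower against the mean of the other classes, where 24.7% and 8.04% of all genes were. The largest rise was for Grb10, an adaptor that restrains the receptors (3.95 ± 0.50). The insulin receptor Insr (2.96 ± 0.30) and the adaptor Shc1 (2.09 ± 0.50) came next, and Lrp1, Pik3r1 and Akt2 were lower. Insr stood at 125, 166 and 74.0 CPM in endothelial cells. Mural cells were also called higher for Grb10 (4.20 ± 0.58) and Shc1 (3.61 ± 0.49). Mean Grb10 was 73.4 CPM in mural and 63.4 CPM in endothelial cells, with overlapping ranges. Grb10 was not confined to vessels. It was also called higher in D1 (2.67 ± 0.50), D2 (2.81 ± 0.50) and Tshz1-Pcdh8 neurons (3.68 ± 0.65), with means of 35.6, 40.9 and 60.3 CPM. Shc1 stood at 25.0, 32.2 and 20.2 CPM in endothelial cells. It was higher in mural cells (117, 95.0 and 36.9 CPM) and fibroblasts (236, 116 and 200 CPM). Against endothelial cells, mural cells were higher for 6 and lower for 3 of the 21, where 7.58% and 8.67% of all genes were, with Lrp1 higher by 3.72 ± 0.50 and the docking protein gene Irs2 by 3.17 ± 0.84, and Grb14, Insr and Foxo1 lower. Astrocytes were highest for Htra1, a secreted protease that cleaves IGF binding proteins, at 978, 748 and 734 CPM (6.24 ± 0.21), and oligodendrocytes for the adaptor Grb14, at 802, 533 and 750 CPM (5.70 ± 0.19).

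In neurons 12 of 26 tested pathway genes were called higher than in non-neuronal cells and 3 lower, where 31.3% of all genes were higher and 34.6% lower. The kinase gene Gsk3b (1.35 ± 0.18) and Grb10 (1.09 ± 0.25) were among the higher, and Htra1, Grb14 and Shc1 were the lower. D1 against D2 neurons and the mCherry contrast gave 0 pathway calls, where 0.49% and 0.0782% of all genes were called. Microglia held more Lrp1 and Rptor than MHC class II macrophages.

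The genes most like each member over the 36 library and class sums are given by Pearson's r of log2(CPM + 10), as a description of sums that share libraries and depth. Igf2 ran closest to Gm9780 (r = 0.957), Mir143hg (0.956) and Des (0.952), all highest in mural cells among the 12 classes of these sums. Igfbp7 was closest to Hrct1 (0.95), Tinagl1 (0.943) and Foxc1 (0.940), Igfbp2 to Arhgef26 (0.942), Gldc (0.918) and Rfx4 (0.913), and Igfbp5 to Aldh1l1 (0.878), Ephx2 (0.872) and 2900052N01Rik (0.870). Igfbp6 was closest to Glce (0.947), Cplx2 (0.925) and Dync1i1 (0.925). Igf1r (9430020K01Rik, 0.792; Sptbn1, 0.769; Sgms1, 0.768), Igf1 (Cd300a, 0.808; Guca1a, 0.802; AB124611, 0.779), Igfbp3 (Ampd3, 0.790; Car8, 0.742; Ddah1, 0.738) and Igfbp4 (Nck1, 0.748; Zcchc8, 0.741; Arl4a, 0.691) had weaker matches. The Pvalb, Sst-Npy and fibroblast classes were not among these sums. Pvalb interneurons were the highest class by mean for Igfbp4, and fibroblasts for Igf2, Igfbp2 and Igfbp5.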

How the data were processed

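The authors deposited 1 gene-by-cell matrix of UMI counts (10x 3′ v2; Cell Ranger 3.0 and mm10, per the submitters' processing notes), with the library given by the barcode suffix, which is not tied to a sample number. Cells had to show 300 or more genes and no more than 20% mitochondrial UMIs, and the highest Scrublet scores were removed at 0.8% per 1000 cells (44, 296 and 28 cells), leaving 9923. Classes needed at least 2 markers and a lead of 2 over the next list (neurons 3 markers; neuron classes 2 and a lead of 1), thresholds chosen after class sizes and purity were seen. Sums of the raw counts for each class in each library were tested with edgeR 4.0.16 (TMM, filterByExpr, quasi-likelihood, library as a block), for 12 classes of at least 10 cells in every library; each library gave sums to every class, so the block pairs them. Alternatives were DESeq2 1.42.0, no filter, each library left out, another prior, deeper cells, no doublet removal, a stricter gate, Leiden clusters (scanpy 1.11.5), no block and depth-matched neurons. The members and lists were chosen with earlier results of these data known. All 10 members were named in every class; of the pathway list up to 3 genes per direction with the largest fold change (some are not reported here), and for each member the 3 genes most like it. The fits were tested on simulated data. Intervals and floors (3 counts) cover counting error only.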

Additional observations from a re-analysis of the deposited data

Results flagged for a closer look

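Cells outside the class comparisons also held IGF family UMIs, in the cases below more than the floor of 3 counts. That floor covers counting error only, so passing it does not show that the transcripts were the cells' own. The 8 gated perivascular macrophages, too few for a fit, held Igf1 at 319 CPM (6 UMIs in 3 cells) and Igfbp4 at 478 CPM (9 UMIs in 4 cells), where 3 counts are 159 CPM. The 6 cholinergic neurons, all of library 2, each held an Igf1r UMI, at 143 CPM.

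The 1359 ungated cells, where 3 counts are 1.44 CPM, held Igf1 at 62.9, Igf2 at 15.4, Igf1r at 52.8, Igf2r at 22.6, Igfbp2 at 150.3, Igfbp3 at 87.4, Igfbp4 at 32.2, Igfbp5 at 157.5, Igfbp6 at 33.1 and Igfbp7 at 210.4 CPM. Of their 131 Igf1 UMIs, 112 lay in cells of MHC class II macrophage clusters. Of their Igfbp3 UMIs, which were 41.5% of all Igfbp3 UMIs counted, 145 lay in 118 ungated cells of astrocyte clusters, and only 38 ungated cells held one. Igf2 was in fibroblast clusters for 22 of 32 UMIs. The cause of these values was not tested.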

How the results depend on the processing

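The count of called member and class pairs, 32 of 108 (21 higher and 11 lower), was 22 to 31 with a library left out. Against all other gated cells summed (added after seeing the data) it was 65, most of them lower. This larger count is therefore not a gain in higher calls, and the share of all genes called in that comparison is not given here. Among the direct contrasts, Leiden clusters gave 2 calls (Igf1 and Igf2r) in place of 0 for macrophages against microglia, and DESeq2 gave 1 in place of 3 for astrocytes against precursors. With a library left out, mural against endothelial cells gave 2 to 5 calls (4 with all) and neurons against non-neuronal cells 5 to 8 (8 with all). Without the replicate block the class count was 26 and the neuron count 6, and no other direct contrast changed its number of calls. Direction reversed for Igfbp5 in D1 neurons without library 2 (0.48; -1.35 to 0.48 over the libraries left out), for Igf1r in D2 neurons against all other cells (-0.24) and for Igf1 in macrophages against microglia by Leiden clusters (3.55); the cause was not tested. Astrocytes against precursors and mural against endothelial cells could not be fitted with cells of at least 1000 UMIs. Classes below 100 cells, the 3 libraries and the shallow library 1 limit all low members.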
